A study of Mus musculus with 14 samples.

Results

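The 10 genes studied in the mouse tibia were chosen by name for their roles in antibody-secreting plasma cells. They were the heavy chain constant genes Ighm, Ighg1, Ighg2b, Ighg2c and Igha, and the kappa light chain constant gene Igkc. Added to these were the joining chain gene Jchain and the plasma cell factors Prdm1, Xbp1 and Mzb1. All 10 symbols were found among the 55291 symbols of the deposited count table, and all 10 had enough counts to be tested. RNA came from tibias of wild-type female C57Bl/6 mice in 5 groups. The sham group had control surgery and kept the ovaries (n = 3). In the other groups the ovaries were removed (ovariectomy, OVX). They were then given phosphate-buffered saline (the OVX-PBS group, n = 3), hippuric acid (abbreviated HA, n = 3), 3'(3'hydroxyphenyl) propionic acid (abbreviated PPA, n = 2), or zoledronic acid (abbreviated ZA, n = 3), a bisphosphonate drug against bone-resorbing osteoclasts. Group names join OVX to these abbreviations. Dosing began 2 to 4 days after surgery and lasted 8 weeks. Doses and ages were not found in the labels. Nor do these say whether 2 libraries could share a mouse, so p-values measure only the spread between these libraries.

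Plasma cells are the end stage of the B cell lineage, and bone marrow is a known home of long-lived ones. They transcribe antibody chains at very high levels, with the class set by the heavy chain constant gene in use, and the joining chain couples IgA and polymeric IgM. Prdm1 and Xbp1 encode transcription factors that install this secretory state, and Mzb1 encodes a chaperone of the endoplasmic reticulum that helps antibody assembly. None of these genes is used by plasma cells alone: naive B cells transcribe Ighm and Igkc, and Prdm1 and Xbp1 act in several other cell types.

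Library totals ran from 11.9 to 35.4, in units of 1e6 estimated counts. Genes of bone (Col1a1, 724 to 4974 CPM, counts per 1e6 counts of the scaled library) and of muscle (Ckm, 3407 to 7965 CPM) were abundant in every library. The myelin gene Mobp stood at 5.55 CPM in OVX-PBS 1 and 1.17 in OVX-HA 2, against 153 to 507 elsewhere. The lymph node vessel gene Glycam1 stood at 32.5 CPM in sham 3, 14.6 in OVX-ZA 1 and 38.6 in OVX-ZA 2, and at no more than 0.915 in the other 11 libraries; the former are called the 3 libraries with Glycam1. Differences between OVX-ZA and OVX-PBS are given with and without those 3 for Igkc, Jchain, Ighg2b, Ighg2c, Prdm1 and Mzb1. Without those 3, OVX-ZA is the 1 library OVX-ZA 3, whose spread is assumed to be that of the other groups. Such values cannot decide whether a ZA difference depends on the 3. Likeness to other genes was computed over all 14 libraries only.

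Some IgG subclass genes share identical stretches, which limits how well the counts of Ighg2b, Ighg2c and Ighg3 can be told apart. All the heavy chain constant genes lie on the minus strand of chromosome 12 (GENCODE M21, build GRCm38). A run of 78 bases is identical in Ighg2b (exon 3, coding, chr12:113306869-113306946) and Ighg2c (exon 3, coding, chr12:113287869-113287946). A run of 88 bases is identical in Ighg2b (exon 5, coding, chr12:113304919-113305006) and Ighg3 (exon 5, coding, chr12:113358080-113358167). Both runs are longer than the 75-base reads and are shown because a read inside either one cannot be assigned to 1 gene; no base is marked by capitals.
Ighg2b and Ighg2c: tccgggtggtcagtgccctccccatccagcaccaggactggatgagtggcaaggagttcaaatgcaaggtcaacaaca
Ighg2b and Ighg3: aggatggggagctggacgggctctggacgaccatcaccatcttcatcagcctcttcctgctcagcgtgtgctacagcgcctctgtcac

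Few read positions are affected. Of 1251 windows of 75 bases in Ighg2c, 6 were shared with Ighg2b, and of 2603 windows in Ighg2b, 14 were shared with Ighg3. Ighg1 shared 0 of its 2517 windows with Ighg2b, Ighg2c or Ighg3. The summed counts of Ighg2b, Ighg2c and Ighg3 were whole numbers (to within 0.02) in 14 of 14 libraries, whereas Ighg2b alone was whole in 2, Ighg2c in 2 and Ighg3 in 7. The fractions of these 3 genes thus cancelled in their sum. Ighg1, Igkc and Prdm1 were whole in 14 of 14 libraries and Mzb1 in 0 of 14, so the level of Mzb1 is uncertain too.

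Antibody constant genes together took 0.0349% to 0.148% of all counts per library. Per kilobase of exon, Igkc was the most abundant member at 460 ± 197 CPM per kb (SD, n = 14), followed by Ighm at 204 ± 71.5. Xbp1 (27.3 ± 1.81), Igha (21.5 ± 11.8), Jchain (20.5 ± 9.35), Ighg2c (14.9 ± 16.8) and Ighg2b (10.2 ± 6.51) came next, and neighbours in this order did not differ beyond their spread. Mzb1 (3.72 ± 1.76) and Ighg1 (3.65 ± 2.45) lay within each other's spread, and Prdm1 was lowest at 0.996 ± 0.422. From its lowest to its highest library Xbp1 varied 1.32-fold, Ighm 3.49-fold and Ighg2c 22.8-fold. OVX-PPA 1 was the lowest library for 7 of the members (Ighm, Ighg1, Ighg2b, Ighg2c, Igkc, Jchain and Xbp1).

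**Figure D1:**
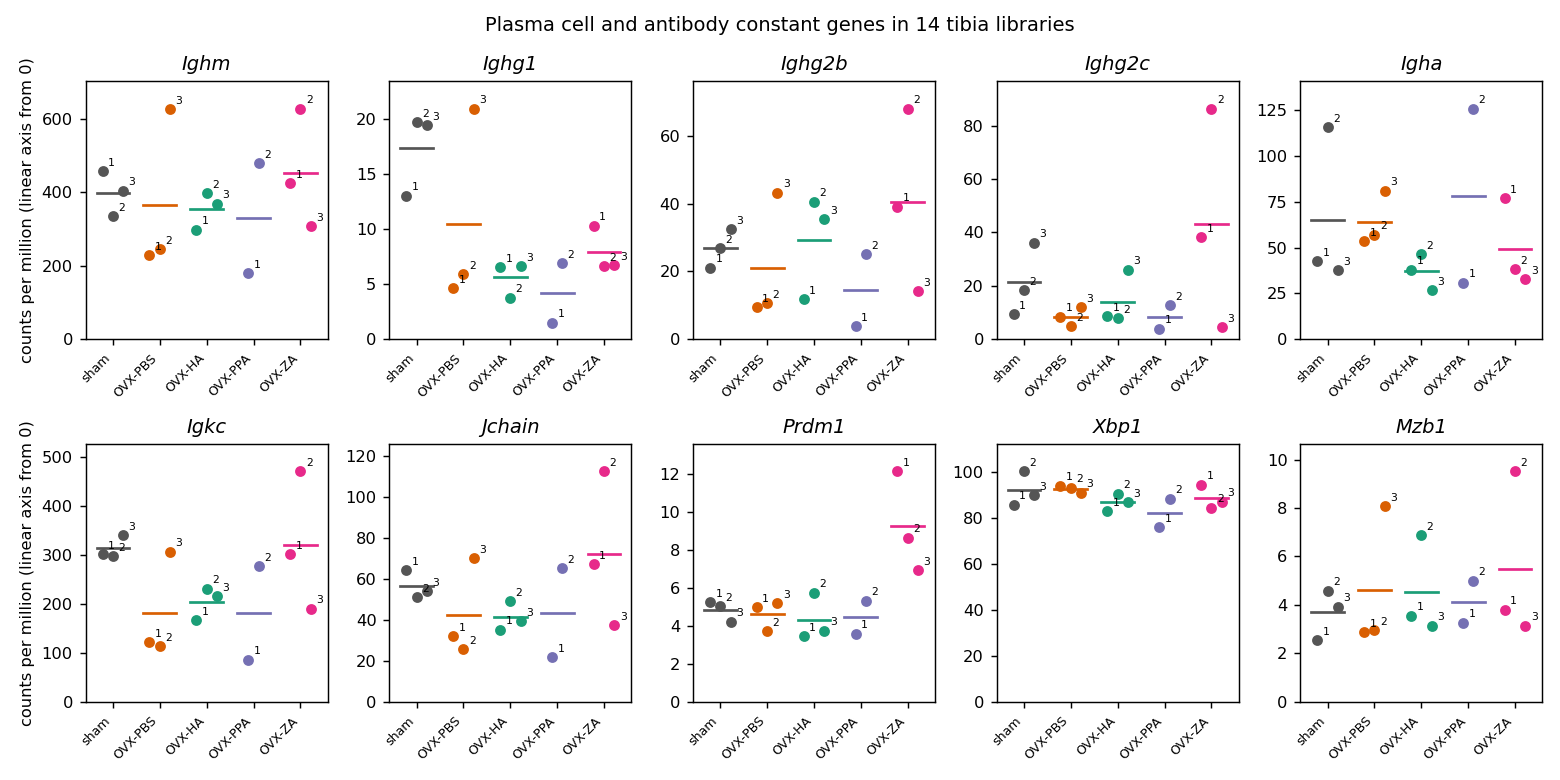
Level of each gene in the 14 libraries, in CPM on linear axes from 0; points are libraries labelled with their replicate number and lines are group means. Libraries of 1 group spread widely for the antibody chain genes, Xbp1 is nearly level, and the 3 OVX-ZA libraries lie above all others for Prdm1.

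None of the 10 genes passed a false discovery rate of 0.05 in any of the 10 pairwise comparisons of groups, by edgeR's quasi-likelihood test adjusted over 21761 genes. DESeq2 and limma also called 0 members in each. Across all genes the edgeR test called 0% in 9 of the comparisons and 0.0046% in OVX-ZA versus OVX-HA. At an unadjusted p under 0.05 the members numbered 0 of 10 in OVX-PBS versus sham (2.73% of all genes), in OVX-HA versus OVX-PBS (1.47%), in OVX-PPA versus OVX-PBS (1.87%) and in OVX-HA versus OVX-PPA (1.19%). They numbered 1 of 10 in OVX-HA versus sham (Ighg1; 1.74%), in OVX-PPA versus sham (Ighg1; 1.82%), in OVX-ZA versus sham (Prdm1; 2.79%) and in OVX-ZA versus OVX-HA (Prdm1; 3.77%). Ighg2c and Prdm1 made 2 of 10 in OVX-ZA versus OVX-PBS (3.36%) and in OVX-ZA versus OVX-PPA (2.06%). The F test for any difference among the 5 groups called 0 members and 0.0046% of all genes, with Ighg1 and Prdm1 at an unadjusted p under 0.05 (1.85% of all genes). For that question DESeq2 called 1 member, Prdm1, at an adjusted p of 0.0427, among 50 of 21761 genes called (0.23%). Without the 3 libraries with Glycam1, which leaves OVX-ZA as 1 library, the log2 difference of Prdm1 in OVX-ZA versus OVX-PBS went from 0.99 to 0.59. The median log2 difference of the members was -0.23 in OVX-PBS versus sham, and -0.047, -0.099 and 0.54 for HA, PPA and ZA against OVX-PBS, beside 0.01, 0.01, -0.02 and -0.04 over all genes tested.

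Some groups did not overlap although no test passed. OVX-PBS versus sham separated 0 of 10 members, against 4.03% of all genes upward and 3.6% downward. Members separated downward were Igha and Xbp1 in OVX-HA versus OVX-PBS (1.83% of all genes), Xbp1 in OVX-PPA versus OVX-PBS (8.77%), Ighg1, Igkc and Jchain in OVX-HA versus sham (1.95%), Ighg1 and Igkc in OVX-PPA versus sham (6.53%) and Ighg1 in OVX-ZA versus sham (5.17%). Prdm1 was separated upward in OVX-ZA against OVX-PBS (4.21%), sham (3.46%), OVX-HA (3.1%) and OVX-PPA (7.18%). These comparisons share control libraries and are not independent of one another.

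**Figure D2:**
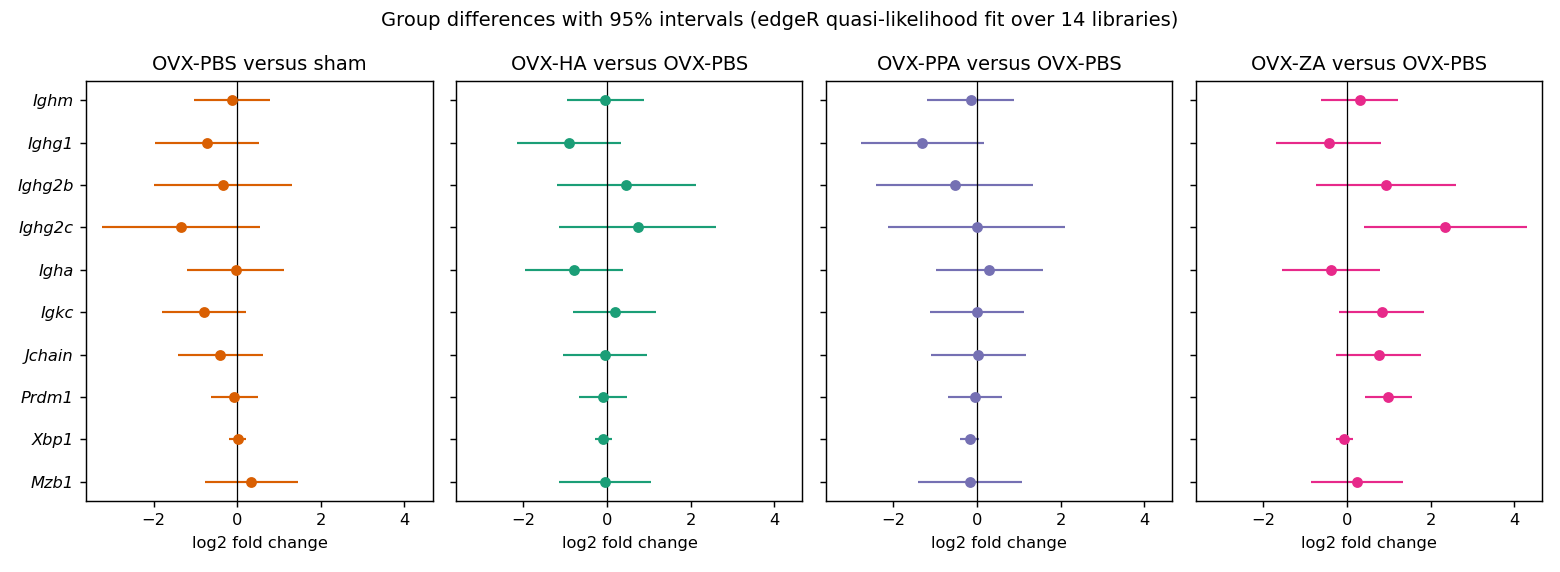
Log2 fold change of each gene in 4 comparisons (x axis), with 95% intervals from the edgeR quasi-likelihood fit over 14 libraries. Intervals are widest for the IgG genes and narrowest for Xbp1, and those of Ighg2c and Prdm1 lie above 0 in OVX-ZA versus OVX-PBS.

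Ighm, the constant gene of IgM, made up most of the heavy chain counts. Ighm stood at 457, 335 and 403 CPM after sham surgery, 228, 244 and 626 under PBS, 298, 398 and 369 under HA, 179.8 and 479 under PPA, and 425, 627 and 307 under ZA. The highest 2 libraries were OVX-ZA 2 and OVX-PBS 3, and every pair of groups overlapped. The log2 difference of Ighm between OVX-PBS and sham was -0.12 ± 0.42 (SE; 95% interval -1.04 to 0.80). In OVX-ZA versus OVX-PBS it was 0.31. Over 23 alternative settings of the analysis it ran from -0.25 to 1.02, and it kept its sign in 21 of them.

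Igkc encodes the constant part of kappa, the light chain that most mouse antibodies use. Igkc stood at 302, 298 and 341 CPM after sham surgery, 121, 113 and 307 under PBS, 167, 231 and 216 under HA, 85.6 and 277 under PPA, and 302, 472 and 190.0 under ZA. The sham libraries lay close together, OVX-PBS 1 and 2 lay far under them, and OVX-PBS 3 lay among them. OVX-PBS differed from sham by a log2 value of -0.79 ± 0.46 (adjusted p = 0.913, edgeR), and OVX-ZA from OVX-PBS by 0.83 ± 0.46 (adjusted p = 0.899). Without OVX-PBS 3 the first of these was -1.46 ± 0.46 (adjusted p = 0.698, edgeR). Over 23 alternative settings of the analysis the first ran from -1.46 to -0.55. Without the 3 libraries with Glycam1 the second was 0.071 ± 0.67. Neither difference passed the adjusted threshold. In a bulk tissue, the number of cells that transcribe Igkc, naive B cells included, and the Igkc RNA in each cell cannot be told apart.

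Jchain encodes the peptide that links IgA and IgM into polymers. Jchain stood at 63.95, 50.98 and 53.7 CPM after sham surgery, 31.8, 25.6 and 69.9 under PBS, 35.2, 49.05 and 39.1 under HA, 21.5 and 65.1 under PPA, and 67.04, 112 and 37.2 under ZA. All 3 OVX-HA libraries lay under all sham libraries, while OVX-PBS, OVX-PPA and OVX-ZA each spread across the sham range. The log2 difference of Jchain was -0.45 ± 0.47 in OVX-HA versus sham (adjusted p = 1.00, edgeR) and 0.76 ± 0.47 in OVX-ZA versus OVX-PBS (adjusted p = 0.899). The latter was -0.19 without the 3 libraries with Glycam1.

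Ighg1, the constant gene of IgG1, was highest on average in sham. Ighg1 stood at 13.03, 19.7 and 19.5 CPM after sham surgery, 4.63, 5.88 and 20.9 under PBS, 6.51, 3.75 and 6.62 under HA, 1.46 and 6.87 under PPA, and 10.3, 6.61 and 6.68 under ZA. Of the 11 ovariectomised libraries, 10 lay under every sham library and OVX-PBS 3 lay above them all. Against sham, the log2 difference of Ighg1 was -1.63 ± 0.58 under HA, -2.03 ± 0.69 under PPA and -1.16 ± 0.58 under ZA, each with an adjusted p of 1.00 by edgeR. In OVX-PBS it was -0.72 ± 0.57 with all 3 libraries (adjusted p = 0.913, edgeR) and -1.75 ± 0.53 without OVX-PBS 3 (adjusted p = 0.698). Over 23 alternative settings of the analysis this OVX-PBS value ran from -1.75 to -0.34. Ighg1 counts are small, from 27 in OVX-PPA 1 to 786 in OVX-PBS 3.

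Ighg2c, the constant gene of IgG2c, had the widest range of the members. Ighg2c stood at 9.29, 18.3 and 36.2 CPM after sham surgery, 8.405, 4.78 and 12.02 under PBS, 8.48, 7.73 and 25.9 under HA, 3.798 and 12.7 under PPA, and 38.1, 86.5 and 4.497 under ZA. The highest 3 libraries, OVX-ZA 2, OVX-ZA 1 and sham 3, are the 3 that carried Glycam1. OVX-ZA exceeded OVX-PBS in Ighg2c by a log2 value of 2.35 ± 0.89 (95% interval 0.41 to 4.301, adjusted p = 0.899, edgeR). Without those 3 libraries the difference was -0.90 ± 0.92, now from the single library OVX-ZA 3, whose spread is assumed to be that of the other groups.

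The lymph node list of 6 genes (Glycam1, Madcam1, Cxcl13, Ccl21a, Cr2 and Chst4) summed to 99.3 CPM in sham 3, 54.7 in OVX-ZA 1 and 113 in OVX-ZA 2, and to between 16.1 and 29.2 CPM in the other 11 libraries. Its mean log2 level correlated with Ighg2c at r = 0.81 over 14 libraries, and at 0.62 without OVX-ZA 2 and sham 3. Cr2, a complement receptor of follicular B cells, had the profile most like Ighg2c among 16055 genes searched (r = 0.89). The part of lymph node RNA in the Ighg2c difference was not tested beyond leaving out these libraries.

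**Figure D3:**
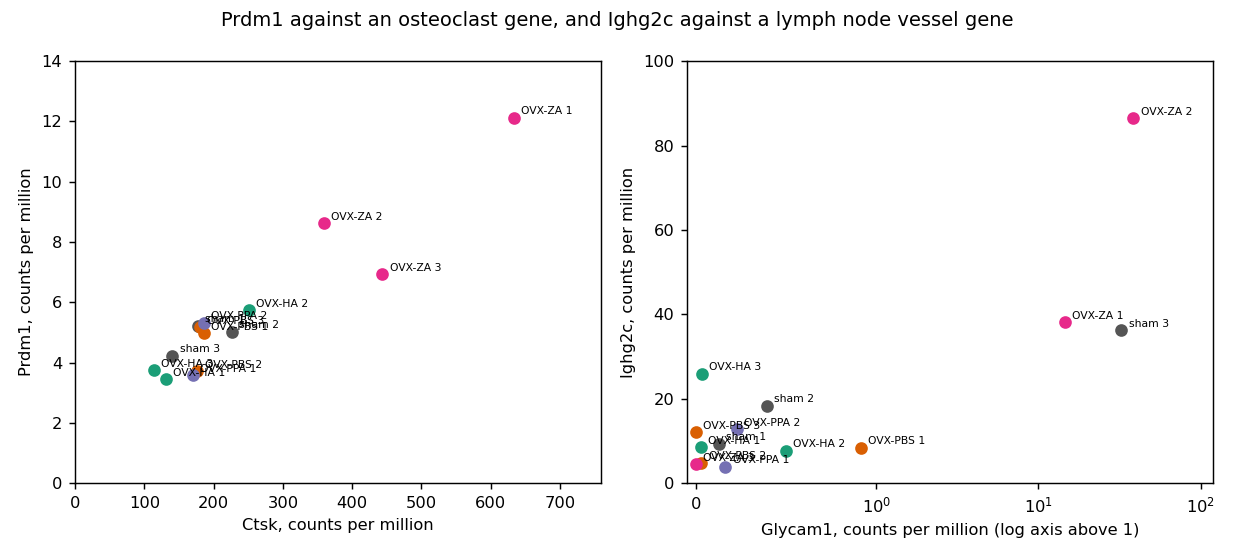
Prdm1 against the osteoclast protease gene Ctsk, and Ighg2c against the lymph node vessel gene Glycam1, in CPM, 1 point a library. The 3 OVX-ZA libraries are highest for both Prdm1 and Ctsk, and the 3 libraries with Glycam1 are the highest for Ighg2c.

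Ighg2b, the constant gene of IgG2b, had high and low libraries in every ovariectomised group. Ighg2b stood at 21.1, 26.9 and 32.5 CPM after sham surgery, 9.32, 10.7 and 43.3 under PBS, 11.8, 40.7 and 35.4 under HA, 3.85 and 25.1 under PPA, and 39.2, 68.2 and 14.2 under ZA. Every pair of groups overlapped. OVX-ZA versus OVX-PBS gave a log2 difference of 0.93 ± 0.77 (adjusted p = 0.899, edgeR), which was -0.58 without the 3 libraries with Glycam1.

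Igha, the constant gene of IgA, the antibody class of mucosal surfaces, had its highest values in other libraries. Igha stood at 42.5, 116 and 37.6 CPM after sham surgery, 53.5, 57.04 and 81.02 under PBS, 37.9, 46.2 and 26.7 under HA, 30.8 and 126 under PPA, and 76.9, 38.2 and 32.6 under ZA. OVX-PPA 2 and sham 2 were the highest libraries, and all OVX-HA libraries lay under all OVX-PBS libraries. The log2 difference of Igha in OVX-HA versus OVX-PBS was -0.79 ± 0.53 (adjusted p = 1.00, edgeR). The neutrophil list of 7 genes correlated with Igha at r = 0.84 over 14 libraries, and at 0.68 without sham 2 and OVX-PPA 2, where that list summed to 5741 and 5344 CPM against 2012 to 4806 elsewhere. The list of mucosal and glandular epithelium summed to between 15.7 and 29.7 CPM over all libraries. The part of either in the Igha level was not tested.

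**Figure D4:**
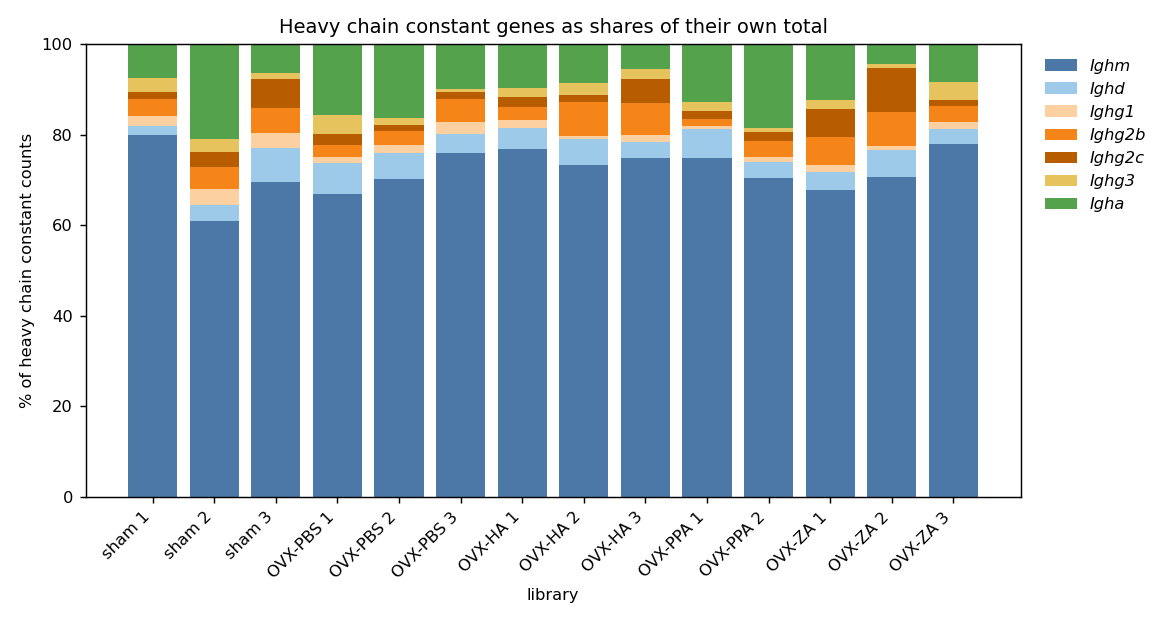
Shares of the heavy chain constant genes in their own total of counts, 1 bar a library (y axis in percent). Ighm takes 60.9% to 79.9% of each bar, and Igha takes from 4.302% in OVX-ZA 2 to 21.03% in sham 2.

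Ratios between antibody genes were taken within each library. Those of Igkc to Ighm, of Igkc to all light chains and of Jchain to Igkc share Igkc, so they are not independent. Class-switched genes (Ighg1, Ighg2b, Ighg2c, Ighg3, Igha and Ighe) took 25.6 ± 9.01% of heavy chain counts in sham (SD, n = 3), 23.4 ± 3.30% with PBS, 20.4 ± 1.57% with HA, 22.4% with PPA (18.7% and 26.0%), and 23.5 ± 4.75% with ZA. All groups overlapped. The exact two-sided permutation test gave p = 0.9 for OVX-PBS versus sham, and 0.3, 0.7 and 1 for HA, PPA and ZA against OVX-PBS, where the smallest p that these sizes allow is 0.1. Adjusted over these 4 comparisons each p was 1.

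The number of Igkc counts per 100 Ighm counts was more even within groups. It was 66.1, 88.9 and 84.6 after sham surgery, 53.4, 46.4 and 49.1 under PBS, 56.0, 58.2 and 58.7 under HA, 47.6 and 57.9 under PPA, and 71.1, 75.2 and 61.9 under ZA. Every sham and OVX-ZA library lay above all libraries of the other 3 groups. The mean differed from sham by -30.2 in OVX-PBS, and OVX-ZA differed from OVX-PBS by 19.8, each with an exact permutation p of 0.1, the smallest that 3 against 3 allows. An exact permutation test over the 5 groups gave p = 0.00636, and 0.0254 after Benjamini-Hochberg adjustment over 4 ratios. This ratio and test were chosen after the values had been seen. Leaving out single libraries gave adjusted values from 0.000992 to 0.0782, above 0.05 without sham 3 (0.0594), OVX-PBS 2 (0.0736), OVX-PBS 3 (0.0541), OVX-ZA 1 (0.0782) or OVX-ZA 2 (0.0649). The adjusted value was 0.0792 without OVX-PBS 1 and OVX-HA 2. Differences between groups held 79.4% of the variance of the ratio over 14 libraries. Without the 3 libraries with Glycam1 they held 75.2% of it over 11 libraries. OVX-ZA is then 1 library, so this setting cannot decide whether the ratio depends on those 3.

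Igkc took 89.3 ± 3.39% of the light chain constant counts in sham (SD, n = 3), 79.2 ± 3.51% with PBS, 84.0 ± 1.70% with HA, 80.2% with PPA (74.7% and 85.6%), and 89.1 ± 2.12% with ZA, the rest being the lambda genes Iglc1, Iglc2 and Iglc3. All OVX-PBS libraries lay under all sham and OVX-ZA libraries. The exact permutation test over the 5 groups gave p = 0.0288 and an adjusted p of 0.0540. Jchain counts per 100 Igkc counts were 18.0 ± 2.83 in sham (SD, n = 3), 23.8 ± 2.04 with PBS, 20.1 ± 1.77 with HA, 24.3 with PPA and 21.8 ± 2.14 with ZA (exact permutation p = 0.0405, adjusted p = 0.0540). Without the 3 libraries with Glycam1 the adjusted p was 0.162 for both measures by the same exact test.

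**Figure D5:**
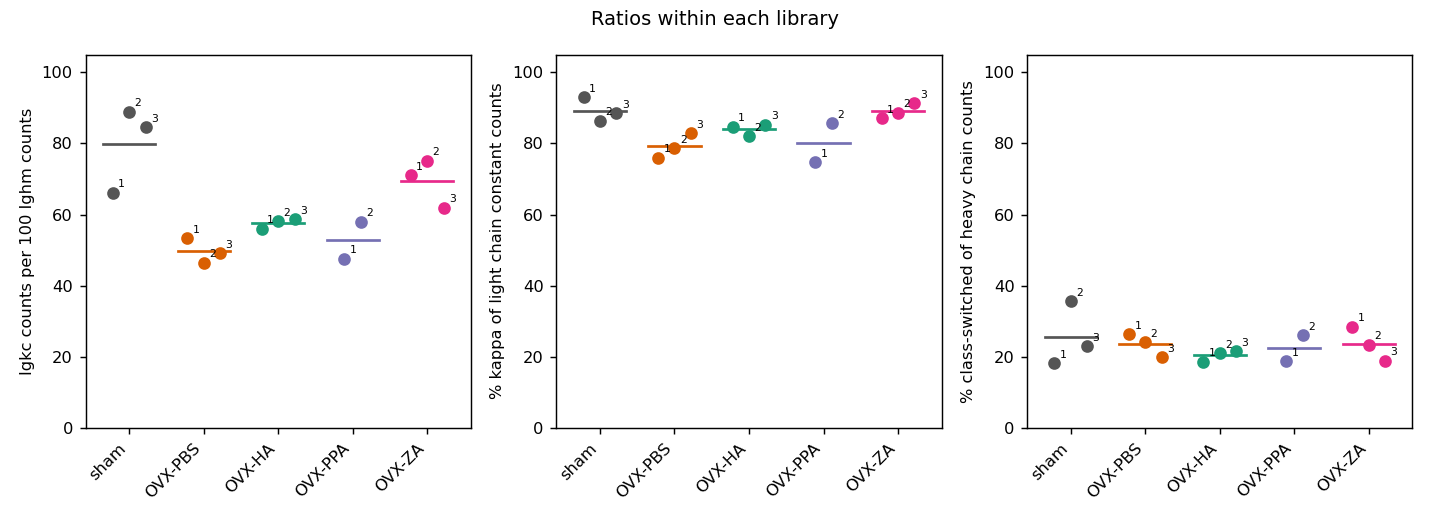
Ratios of antibody gene counts within each library, by group (axes from 0); points are libraries with their replicate number and lines are group means. Sham and OVX-ZA libraries lie above the other 3 groups for Igkc per Ighm, and the class-switched share overlaps among all groups.

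Genes of pro-B and pre-B cells are given beside the Igkc to Ighm ratio because pre-B cells carry Ighm before a light chain gene has been rearranged. The 8 genes of this list summed to 61.2 to 90.2 CPM in sham, 95.4 to 148 with PBS, 102 to 147 with HA, 94.2 to 155 with PPA, and 67.3 to 93.8 with ZA. By this sum every sham and OVX-ZA library lay under all libraries of the other 3 groups, the closest being OVX-ZA 2 at 93.8 and OVX-PPA 1 at 94.2 CPM. By the list's mean log2 level, in which each gene weighs the same, sham 2 (2.73) and OVX-ZA 2 (2.78) lay above OVX-PPA 1 (2.61). That mean level correlated with the ratio at r = -0.45 over 14 libraries, and at 0.59 after group means were subtracted, so within groups the sign was the opposite. Their median log2 difference was 1.19 in OVX-PBS versus sham, where 6 of 8 were higher at an unadjusted p under 0.05 (1.44% of all genes), and -1.02 in OVX-ZA versus OVX-PBS, where 4 of 8 were lower (2.04%), beside medians of 0.01 and -0.04 over all genes. Without the 3 libraries with Glycam1 the medians were 1.16 and -1.19, with 2 and 1 of 8 at that threshold. None passed the adjusted threshold. Vpreb1, part of the surrogate light chain, stood at 1.39, 2.73 and 2.09 CPM in sham and 4.69, 5.57 and 6.74 in OVX-PBS (log2 difference 1.45 ± 0.39, adjusted p = 0.913, edgeR). Igll1, its partner chain, gave 1.27 ± 0.40 (adjusted p = 0.913). The early B cell factor Ebf1 ranged over 40.1 to 65.1 CPM and the recombinase gene Rag1 over 4.64 to 34.1 CPM. The part of these cells in the ratio was not tested.

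Prdm1, which encodes the repressor Blimp-1 that ends the B cell program, had the smallest p of the members. Prdm1 stood at 5.22, 5.01 and 4.22 CPM after sham surgery, 4.97, 3.72 and 5.17 under PBS, 3.45, 5.74 and 3.74 under HA, 3.58 and 5.32 under PPA, and 12.1, 8.62 and 6.93 under ZA. All 3 OVX-ZA libraries lay above all 11 others, as they did for 0.404% of the genes tested. The log2 difference of Prdm1 in OVX-ZA was 0.99 ± 0.26 against OVX-PBS (95% interval 0.42 to 1.56, adjusted p = 0.899, edgeR), 0.93 ± 0.26 against sham (adjusted p = 1.00), 1.09 ± 0.26 against OVX-HA (adjusted p = 0.780) and 1.04 ± 0.30 against OVX-PPA (adjusted p = 1.00). Over the 23 alternatives the value against OVX-PBS stayed between 0.59 and 1.17, lowest at 0.59 ± 0.35 without the 3 libraries with Glycam1. Without them the value against sham was 0.44 ± 0.37, against OVX-HA 0.69 ± 0.34 and against OVX-PPA 0.63 ± 0.37. The counts behind Prdm1 were 66 to 196 a library.

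The antibody chain genes had their highest library elsewhere than Prdm1. OVX-ZA 1 had the highest Prdm1, whereas OVX-ZA 2 had the highest Ighm, Ighg2b, Ighg2c, Igkc, Jchain and Mzb1, and OVX-ZA 3 lay under all sham libraries for Igkc and Jchain. Over 14 libraries the 5 genes with profiles most like Prdm1, of 16055 searched, were Slc37a2 (r = 0.96), Oscar (0.95), Atp6v0d2 (0.93), Mmp9 (0.93) and Dcstamp (0.93). Such a search favours any gene that is high in the OVX-ZA group, where Prdm1 is highest. It was not repeated for Prdm1 after group means were subtracted. As background, Oscar is an osteoclast receptor, Atp6v0d2 a proton pump subunit, Mmp9 a matrix protease and Dcstamp a protein of osteoclast fusion. Ctsk, the osteoclast protease cathepsin K, stood at 633, 359 and 444 CPM in OVX-ZA and between 114 and 251 in the other 11 libraries. Ctsk was taken from a list of 8 bone cell genes, with Bglap, Col1a1, Alpl, Sp7, Dmp1, Sost and Acp5. That list summed to 1525 to 2647 CPM in OVX-ZA and to 2529 to 6139 CPM in the other groups. Acp5, its other osteoclast gene, had an unadjusted p of 0.0893 in the edgeR F test over 5 groups, against 0.000391 for Ctsk. The part of osteoclasts in the Prdm1 level was not tested.

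Xbp1, a factor of the unfolded protein response that plasma cells need to expand their secretory apparatus, was nearly level. Xbp1 stood at 85.7, 100.1 and 89.7 CPM after sham surgery, 93.8, 92.9 and 90.7 under PBS, 82.9, 90.3 and 86.6 under HA, 75.7 and 88.2 under PPA, and 94.3, 84.3 and 86.8 under ZA. All OVX-HA and all OVX-PPA libraries lay under all OVX-PBS libraries, by small amounts. Against OVX-PBS, Xbp1 gave a log2 difference of -0.09 ± 0.09 under HA and -0.17 ± 0.11 under PPA (95% interval -0.40 to 0.06), both with an adjusted p of 1.00 by edgeR.

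The unfolded protein response and secretion list held 17 genes, all tested, and 0 passed in OVX-PBS versus sham or in any compound against OVX-PBS. Its median log2 difference was 0.08 in OVX-PBS versus sham, and -0.07 for HA, -0.20 for PPA and -0.22 for ZA against OVX-PBS, beside 0.01, 0.01, -0.02 and -0.04 over all genes tested. Herpud1, a protein of endoplasmic reticulum degradation, stood at 99.4, 107 and 93.4 CPM in OVX-PBS and 77.6 and 80.4 in OVX-PPA (log2 difference -0.34 ± 0.10, adjusted p = 1.00, edgeR). Creld2, another protein of the endoplasmic reticulum, stood at 16.5, 18.2 and 17.03 CPM in OVX-PBS and 12.3 and 10.9 in OVX-PPA. The most abundant were the chaperones Hspa5, at 251 to 365 CPM, and Hsp90b1, at 227 to 289 CPM. The list's mean log2 level correlated with Xbp1 at r = 0.70 over 14 libraries, and Sdf2l1, one of its genes, was the gene most like Xbp1 of all searched (r = 0.87).

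Mzb1 was low throughout, with 46.4 to 303 estimated counts a library. Mzb1 stood at 2.55, 4.59 and 3.93 CPM after sham surgery, 2.86, 2.95 and 8.08 under PBS, 3.56, 6.88 and 3.15 under HA, 3.26 and 4.99 under PPA, and 3.79, 9.52 and 3.14 under ZA. OVX-ZA 2, OVX-PBS 3 and OVX-HA 2 were the highest libraries, and every pair of groups overlapped. The log2 difference of Mzb1 was 0.34 ± 0.51 in OVX-PBS versus sham and 0.24 ± 0.51 in OVX-ZA versus OVX-PBS, the latter -0.57 ± 0.72 without the 3 libraries with Glycam1.

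Hippuric acid, in which benzoic acid is joined to glycine, and 3'(3'hydroxyphenyl) propionic acid, a phenol with a propionic acid side chain, were compared with each other over the 10 members. Their doses are not known here. No member passed the adjusted threshold in OVX-HA versus OVX-PPA. The members with the smallest p were Igha, with a log2 value of -1.09 ± 0.59 (95% interval -2.36 to 0.19, adjusted p = 1.00, edgeR), and Ighg2b, with 1.00 ± 0.88 (interval -0.91 to 2.91). Without OVX-PPA 2 the Igha value was 0.26. The interval of Ighm was -0.93 to 1.14, that of Igkc -0.95 to 1.30 and that of Prdm1 -0.69 to 0.58, so the data leave differences of either sign within these bounds possible. Xbp1 had the narrowest interval, -0.15 to 0.31.

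Of 12 other plasma cell genes, 0 passed in OVX-PBS versus sham or in any compound against OVX-PBS. Their median log2 difference was 0.18 in OVX-PBS versus sham, where 11 of 12 values were positive, and -0.12 in OVX-ZA versus OVX-PBS, where 3 of 12 were. These 12 values come from the same libraries and are not independent. Leaving out the 3 libraries with Glycam1 gave medians of 0.19 and -0.45, beside 0.007 and -0.04 over all genes. Sdc1, the plasma cell surface proteoglycan, stood at 34.9, 21.9 and 24.9 CPM in OVX-ZA against 20.6, 16.5 and 21.96 in OVX-PBS (log2 difference 0.46 ± 0.20, adjusted p = 0.899, edgeR). Fkbp11, a folding enzyme of secretory cells, stood at 1.81, 1.52 and 1.16 CPM in OVX-ZA against 2.57, 2.95 and 2.69 (-0.89 ± 0.31, adjusted p = 0.899, edgeR), with all OVX-ZA libraries under all OVX-PBS libraries, as for 9.96% of all genes. Without the 3 libraries with Glycam1 the Sdc1 value was 0.34 ± 0.26 and that of Fkbp11 -1.24 ± 0.49. The most abundant of the list were Txndc5, at 69.6 to 88.9 CPM, and Ell2, at 33.7 to 54.3 CPM.

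Of 6 antibody constant genes outside the members, Ighe had at most 9 counts and was not tested, and 0 of the other 5 passed in the same 4 comparisons. Ighd, the constant gene of IgD on naive B cells, ranged over 11.1 to 53.9 CPM, highest in OVX-ZA 2 and then in sham 3. Ighg3 stood at 18.3, 15.5 and 7.46 CPM in sham and 13.9, 5.48 and 6.29 in OVX-PBS (log2 difference -0.70 ± 0.42, adjusted p = 0.913, edgeR). The lambda gene Iglc1 ranged over 5.74 to 34.6 CPM and Iglc2 over 7.14 to 22.97 CPM.

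Of 12 mature B cell genes 0 passed, with a median log2 difference of 0.50 in OVX-PBS versus sham and -0.41 in OVX-ZA versus OVX-PBS. Pax5, a B cell identity factor that Blimp-1 represses, stood at 11.2, 22.7 and 25.5 CPM in sham and 34.8, 30.9 and 47.7 in OVX-PBS (0.93 ± 0.38, adjusted p = 0.913, edgeR). Spib, a B cell factor of the ETS family, gave -0.88 ± 0.43 in OVX-ZA versus OVX-PBS (adjusted p = 0.899, edgeR), and -1.37 ± 0.70 without the 3 libraries with Glycam1. The list's medians were then 0.76 and -1.35, beside 0.007 and -0.04 over all genes, with OVX-ZA as 1 library. Cd74 ranged over 133 to 339.7 CPM and Bcl6 over 49.5 to 88.3 CPM.

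Of 6 class switching and germinal centre genes and 9 tested genes of the plasma cell niche, 0 passed in these comparisons. Ung, a repair enzyme of class switching, ranged over 4.88 to 11.7 CPM, and S1pr2, a receptor of germinal centre B cells, over 5.43 to 9.097 CPM. Cd40 gave a log2 difference of 0.36 ± 0.35 in OVX-ZA versus OVX-PBS, and -0.16 ± 0.43 without the 3 libraries with Glycam1. Cxcl12, the chemokine that holds plasma cells in marrow, ranged over 219 to 434 CPM and was highest in OVX-PBS 3. Fcgrt, the neonatal Fc receptor that recycles IgG, ranged over 52.7 to 73.8 CPM. Pigr, which carries polymeric IgA across epithelia, had 14, 23 and 0 counts in sham 1, 2 and 3, and at most 8 in any other library.

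Ighm, Ighg2b, Igkc and Jchain varied together from library to library, and Ighg1, Ighg2c and Igha followed them less closely. On log2 CPM over the 14 libraries, Ighm and Jchain correlated at r = 0.95, Igkc and Jchain at 0.95, Ighm and Igkc at 0.92 and Ighm and Ighg2b at 0.91. After group means were subtracted these were 0.96, 0.97, 0.97 and 0.92. Ighm correlated with Ighg2c at 0.66, with Ighg1 at 0.62 (0.30 without OVX-PPA 1 and OVX-PBS 1), with Igha at 0.29 and with Xbp1 at 0.19. Ighg1 and Ighg2c correlated at 0.47. The genes of each pair were read from the same libraries, which differ in depth and tissue makeup, so these values are descriptions.

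Genes outside the immunoglobulin loci with profiles most like the mean of Jchain, Mzb1 and Igkc, of 16055 searched over 14 libraries, were Scml4 (r = 0.90), Malt1 (0.88), Bank1 (0.88), Dnase1l3 (0.87), Cd4 (0.86), Ptger2 (0.86), Parp4 (0.86) and Tnfrsf18 (0.85). Bank1 is a B cell scaffold protein, Malt1 a signalling protease of lymphocytes, and Cd4 and Tnfrsf18 are T cell surface proteins. The list of 10 T cell genes summed to 66.7 CPM in sham 3, 39.0 in OVX-ZA 1 and 70.1 in OVX-ZA 2, the 3 libraries with Glycam1, and to 12.6 to 28.9 CPM elsewhere. After group means were subtracted, the 8 were Ap1s3 (0.98), Ralgps2 (0.96), Dpp4 (0.95), Il2ra (0.95), Trim30d (0.94), Arhgap15 (0.93), Ikzf3 (0.93) and Ly6d (0.93).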

How the data were processed

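Per the labels' protocols, tibia poly(A) RNA was made into libraries with an Illumina stranded mRNA ligation kit and sequenced from 1 end for 75 bases. Software named by the submitters' processing notes, without roles, was STAR 2.7.8a, Bowtie2 2.2.5, CASAVA 1.8.1 and Partek, with build mm10. No source used here gives the counting tool, annotation or use of strand. The authors deposited estimated counts per gene symbol, not normalized, and log2 values scaled per library, TMM by the table's name.

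Estimated counts were rounded to whole numbers and filtered with edgeR by group (21761 genes). TMM scaling and 1 quasi-likelihood fit over 14 libraries with a mean per group followed (edgeR 4.0.16, R 4.3.3; 9 residual degrees of freedom, biological coefficient of variation 25.0%). Comparisons were two-sided with Benjamini-Hochberg adjustment over all genes and a threshold of 0.05. CPM are TMM-scaled, log2 CPM use a prior count of 2, and intervals cover 95%. DESeq2 1.42.0, and limma 3.58.1 on the deposited log2 values, were alternatives. Within-library ratios used exact permutation tests. The edgeR script was tested on simulated data. Gene coordinates come from GENCODE M21, which held 53292 of the 55291 symbols (96.4%), and promoters from RefSeq (GRCm38.p6).

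The members, lists and tests were chosen with earlier results of these data known. All 10 members were named. From each list the 2 most abundant genes and the 2 with the smallest p in the 4 main comparisons were named, beside marker genes where a result turned on them. Likeness to single members, and the 5-group tests of ratios, were added after the data had been seen, as were the values of list genes without the 3 libraries with Glycam1.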

Additional observations from a re-analysis of the deposited data

How the results depend on the processing

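All 10 pairwise comparisons gave 0 members called under every alternative: no filter on low counts, RLE scaling, scaling without immunoglobulin genes, DESeq2, limma on the deposited log2 values, only the 2 groups compared, each library left out, without the 2 libraries with little nervous tissue RNA and without the 3 libraries with lymph node transcripts. The 5-group test gave 0 members except with DESeq2 (1, Prdm1, among 50 genes called of 21761). After group means were subtracted, same-numbered libraries of different groups correlated at a median of 0.048 (26 pairs, -0.76 to 0.67). Differently numbered ones correlated at a median of -0.031 (52 pairs, -0.71 to 0.77), and 4 of 14 libraries were closest to their own number. With ranges this wide, these values cannot decide whether replicate numbers pair the libraries. With the replicate block 0 members were called in each comparison.

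Of 38 member differences larger than their standard error, 23 kept their sign in all alternatives and 17 of 874 values reversed; the cause was not tested. Without the lymph node libraries, where OVX-ZA is 1 library, OVX-ZA versus OVX-PBS became -0.58 for Ighg2b, -0.90 for Ighg2c and -0.19 for Jchain. OVX-ZA versus sham became -1.62 for Ighg2c and -0.19 for Mzb1. OVX-ZA versus OVX-HA became -1.64 for Ighg2c, -0.11 for Igkc and -0.14 for Jchain. OVX-ZA versus OVX-PPA became -0.041 for Ighg2b, -0.89 for Ighg2c and -0.23 for Jchain. Leaving out single libraries reversed 6 values: Ighg1 in OVX-HA versus OVX-PBS (-1.25 to 0.11, positive without OVX-PBS 3), Ighg2c (-0.013 to 1.64) and Mzb1 (-0.10 to 0.87) in OVX-ZA versus sham, negative without OVX-ZA 2, Igha in OVX-HA versus OVX-PPA (-1.77 to 0.26) and in OVX-ZA versus OVX-PPA (-1.37 to 0.73), positive without OVX-PPA 2, and Xbp1 in OVX-ZA versus OVX-PPA (-0.0011 to 0.27, negative without OVX-PPA 1).

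Divided by exon length, the class-switched share fell short of its undivided value by more than the group's SD in OVX-PBS (19.0% against 23.4%) and in OVX-HA (17.3% against 20.4%). The adjusted 5-group p over single libraries left out ranged from 0.000992 to 0.0782 for Igkc per Ighm, from 0.0125 to 0.0994 for the kappa share, from 0.0241 to 0.136 for Jchain per Igkc and from 0.394 to 0.956 for the class-switched share. For Igkc per Ighm it was 0.0792 without the 2 libraries with little nervous tissue RNA and 0.162 without the 3 with lymph node transcripts. Groups of 2 or 3 limit every comparison.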

Other observations

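Promoters of 3 members (Jchain, Prdm1 and Xbp1) and of 14 of the 17 genes of the unfolded protein response list were searched on both strands in RefSeq windows of 300 bases around the gene start (GRCm38.p6), for the octamer ATGCAAAT of antibody genes, the unfolded protein response element TGACGTGG and the endoplasmic reticulum stress element. Among 32851 promoters these were found in 1.74%, 0.676% and 0.119%. The windows of Jchain, Prdm1 and Xbp1 held none of them, which says only that these letters are not there. The promoter of Mzb1, a member on chromosome 18, is not reported here. The stress element was found at Creld2, Dnajc3, Hsp90b1, Hspa5 and Pdia6.

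Of 16055 genes searched over the 14 libraries, those with profiles most like Igha were Hmox1 (r = 0.93), the heme-degrading enzyme, Selp (0.92), an adhesion protein of platelets and vessels, and Rab32 (0.91).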
